A study of Caenorhabditis elegans with 7 samples.

Results

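The nuclear hormone receptor genes of Caenorhabditis elegans carry the gene name nhr followed by a number. They were taken here as every gene with such a name that is measured by at least 1 probe set annotated with that symbol alone, and 254 of the 17118 genes of the array met this rule. Of the 254, 231 were read from a probe set designed as specific to the gene (suffix _at) and 1 from a less specific one (_x_at). The other 22 were read from a probe set that can be shared by several transcripts, of 1 gene or of more (_s_at, called shared here). RefSeq names 283 nhr genes, of which 29 had no probe set of their own, and 11 of the measured genes are annotated there as pseudogenes.

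Nuclear hormone receptors are transcription factors that bind DNA through a zinc finger domain and, in many members, bind a small lipophilic molecule through a second domain, so that a hormone or metabolite can set the activity of target genes. The nematode family is far larger than that of flies or vertebrates. Most of its extra members are related to the vertebrate receptor HNF4, and for most of them neither ligand nor function is known. Members with known functions act in molting, lipid and dietary metabolism, detoxification, and the differentiation of epidermal, excretory and neural cells.

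The 254 genes were compared between embryonic A-class motor neurons and all cells of the embryo. A-class motor neurons are excitatory, cholinergic neurons that express the homeodomain gene unc-4. For 3 arrays, cells carrying the unc-4::GFP reporter were sorted by fluorescence from dissociated embryos that had been cultured for 24 h, and about 90% of the sorted cells were GFP-positive. For 4 reference arrays, all living cells (those not stained by propidium iodide) were sorted from wild-type (N2) embryos dissociated and cultured in the same way. Each array was hybridized with biotin-labeled RNA made from 100 ng of total RNA by 2 rounds of in vitro transcription. The sort follows the unc-4 promoter, which among these cells is also active in the pharyngeal neuron I5, and the reference contains A-class cells among all others. Both groups were bulk RNA, so fewer cells of a type and less RNA per cell cannot be told apart.

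Values are RMA intensities, the background-corrected and normalized brightness of a probe set on a linear scale. Fold changes are differences of mean log2 intensity, A-class minus reference, with the standard error (SE) of limma's linear model, and p-values were adjusted over all 22548 probe sets. A call, higher or lower, required at least 1.7-fold together with an adjusted p below 0.01. The replicate arrays are labelled as biological replicates. Median intensity lay between 66.9 and 70.1 on the 7 arrays, and the coefficient of determination (R2) of log2 intensity was 0.893 to 0.947 among A-class arrays, 0.938 to 0.969 among reference arrays and 0.772 to 0.876 between the groups. The sorted marker unc-4 itself was higher in A-class cells by 3.72 on the log2 scale (SE 0.13, limma adjusted p = 2.1e-05), and 3 of 5 A-class markers were called, with a summed intensity of 2204 to 3048 on A-class and 506 to 596 on reference arrays. Summed markers of other cells did not overlap between groups for hypodermis and body wall muscle (values beside the developmental receptors), touch neurons (492 to 540 on A-class, 1060.4 to 2422 on reference arrays, 1 of 5 lower), GABA motor neurons (296 to 362 against 407 to 535, none of 4 called) and germline (534 to 986 against 432 to 526, none of 5 called), and their part in the values of nhr genes was not tested. All A-class arrays were of 1 chip lot and all reference arrays of another, so chip lot and group cannot be told apart, and no hybridization day held both groups. The fluidics module used to wash and stain the arrays held both groups for module 1 (2 A-class and 2 reference arrays) and module 2 (1 of each). Module 3 held reference array 3 alone. A fit with module as a block therefore takes no group difference from that array, and its estimates equal those without it.

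Few nhr genes were called between A-class cells and the reference. Of 254 genes, 5 were higher (1.97%), 4 were lower (1.57%) and the remaining 245 were not called. Among all 17118 genes, 2.21% were called higher, 3.31% lower and 5.51% in either direction, so the share of nhr genes called, 3.54%, was no larger than that of genes at large and is not a result about the family. The higher genes were nhr-3, nhr-116, nhr-95, nhr-104 and nhr-240. The lower genes were nhr-43, nhr-10, nhr-57 and nhr-243. Every A-class array lay on 1 side of every reference array for 66 members (26.0%), 33 above and 33 below, against 30.7% of all genes in either direction, 17.1% above and 13.6% below. All 9 called genes were among the 66, and the other 57 were not called.

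The family as a whole was centred on no difference. The median log2 fold change of the nhr genes was 0.0039, with quartiles of -0.27 and 0.23, beside a median of 0.05 and quartiles of -0.24 and 0.28 for all genes. The sign was positive for 129 members and negative for 125. Within 1.25-fold of the reference lay 159 members (62.6%, all genes 57.7%), and 20 were at least 1.7-fold apart (7.87%, all genes 12.8%). Single nhr genes ranged from -2.72 for nhr-43 to 1.42 for nhr-3. The median deviation of the family from the mean of the reference arrays was -0.012, 0.0099 and -0.0019 on A-class arrays 1, 2 and 3, so no A-class array carried a shift of the family in 1 direction. The spread of these deviations over the members was wider on the A-class arrays (SD 0.43, 0.58 and 0.51) than on the reference arrays, which enter that mean themselves (0.13 to 0.21).

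For most of the uncalled members the data also bounded the difference in measured intensity, in which group and chip lot cannot be told apart. Of the 245, 172 (70.2%) had a 95% interval that lay wholly within 1.7-fold in both directions, against 64.9% of all uncalled genes. The interval of the other 73 reached past 1.7-fold, so for these the 7 arrays do not bound the difference to under 1.7-fold. The interval reached a median of 0.34 on the log2 scale to either side of the estimate. The SD of log2 intensity between replicates had a median of 0.21 over the members among A-class arrays and 0.15 among reference arrays, against 0.22 and 0.17 for all genes.

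Probe sets of the family were dim. The median of the members' mean intensities was 50.5, against 70.8 for all genes, and 108 members (42.5%) lay in the dimmest 30% of probe sets, against 29.7% of all genes. Of the 254, 165 (65.0%) were below the median brightness of all probe sets (all genes 50.4%), and none of these 165 was called. Outside the dimmest 30%, 9 of 146 members were called (6.16%), against 7.54% of all genes. For 71 members (27.95%, all genes 21.7%) at least 1 A-class and 1 reference array held exactly the same deposited value. A dim probe set does not tell a gene that is off in both samples from one with little signal in both.

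**Figure D1:**
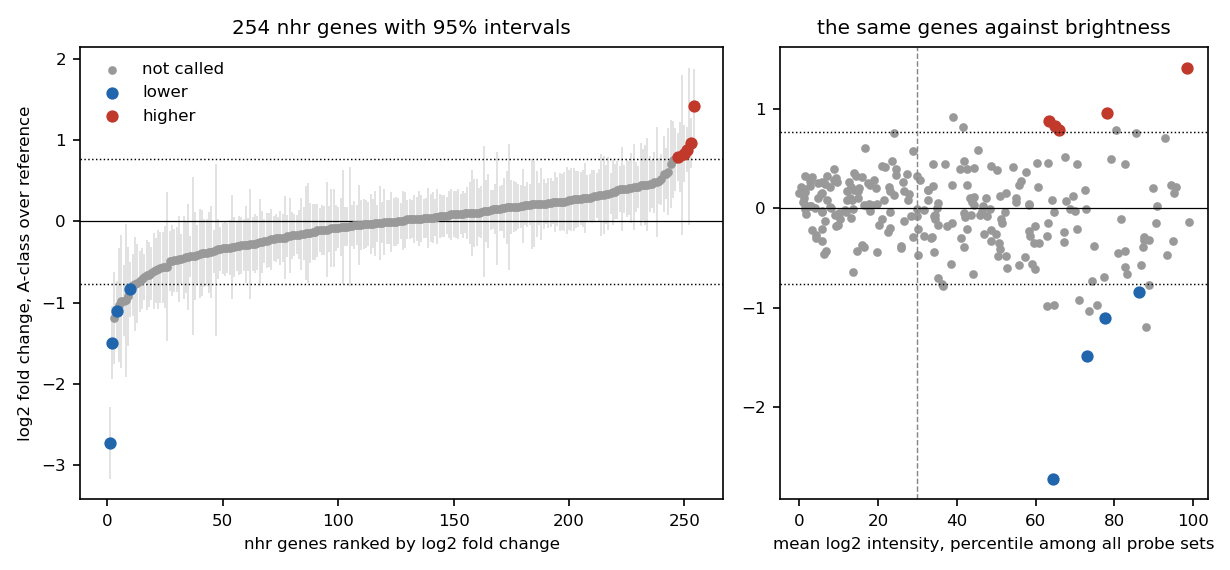
The left panel plots the log2 fold change, A-class over reference, of the 254 nhr genes in rank order with 95% intervals (grey lines), and the right panel plots the same values against the percentile of the mean log2 intensity among all probe sets (dashed line, 30%). Dotted lines mark 1.7-fold. The values run from -2.72 to 1.42 around a median of 0.0039, and the 5 higher (red) and 4 lower (blue) genes all lie to the right of the dashed line.

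Among the genes higher in A-class cells, nhr-3 (H01A20.1) had the largest difference. Its intensity was 2565, 2419 and 3172 on A-class arrays 1, 2 and 3, and 1162, 1171, 709 and 1079 on reference arrays 1 to 4. The means were 2719 ± 399 (SD, n = 3) and 1030.3 ± 218 (SD, n = 4), a log2 fold change of 1.42 (SE 0.20, limma adjusted p = 0.0032) or 2.67-fold. The groups did not overlap, and even reference array 2, the brightest of its group, was well under the dimmest A-class array. The probe set is of the shared type, and a second shared probe set of nhr-3 gave 0.92 (limma adjusted p = 0.053), in the same direction but not called. The call was lost without A-class array 1 or 3 or reference array 2 or 4 (limma adjusted p up to 0.016), and a fit with fluidics module as a block gave 1.25 (limma adjusted p = 0.013), 1.31 within module 1 and 1.13 within module 2.

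The gene nhr-116 (F09C6.9) measured 278, 237 and 232 on the A-class arrays and 146, 110.5, 129 and 125 on the reference arrays. Its means of 249 ± 25.5 (SD, n = 3) and 128 ± 14.7 (SD, n = 4) gave a log2 fold change of 0.97 (SE 0.13, limma adjusted p = 0.0031), or 1.95-fold. All A-class arrays were above all reference arrays. With the module as a block the difference was 0.97 (limma adjusted p = 0.026), and it was 0.79 within module 1 and 1.33 within module 2. The call was lost without A-class array 1 or 3 or reference array 2, 3 or 4 (limma adjusted p up to 0.013).

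The gene nhr-95 (Y39B6A.17) read 143, 128 and 149 in A-class cells against 76.5, 67.8, 77.3 and 83.8 in the reference. The means were 140.2 ± 10.5 (SD, n = 3) and 76.3 ± 6.58 (SD, n = 4), a log2 fold change of 0.88 (SE 0.12, limma adjusted p = 0.0029), or 1.84-fold. The replicates lay close together in both groups and the groups were well apart. With the module as a block it was 0.89 (limma adjusted p = 0.022), with 0.79 and 1.08 within modules 1 and 2, and the call was lost without A-class array 1 or 3 or reference array 2 (limma adjusted p up to 0.014). In the RefSeq gene order nhr-95 stands between nhr-145, not measured by a probe set of its own, and the potassium channel gene twk-46, which was itself higher (2.51, limma adjusted p = 3.1e-04). The genes nhr-95 and twk-46 have separate probe sets, and of the called members placed in the gene order nhr-95 was the only one with another nhr gene beside it.

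The gene nhr-104 (R11E3.5) was at 115, 165 and 159 in A-class cells and at 73.8, 87.4, 82.98 and 80.9 in the reference. The log2 fold change was 0.83 (SE 0.15, limma adjusted p = 0.0092), or 1.78-fold. A-class array 1 was the lowest of its group but still above every reference array. The module block gave 0.84 (limma adjusted p = 0.043), with 1.07 within module 1 and 0.39, under the fold limit, within module 2, where A-class array 1 is compared with reference array 2. The call was lost without any 1 array other than A-class array 1 (limma adjusted p up to 0.036).

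The smallest of the higher genes was nhr-240 (Y60A3A.15), which RefSeq annotates as a pseudogene. Its intensity was 139, 155 and 146 in A-class cells and 84.3, 84.8, 98.3 and 73.1 in the reference, with a log2 fold change of 0.79 (SE 0.13, limma adjusted p = 0.0058), or 1.73-fold. The groups were apart, with reference array 3 nearest to the A-class arrays. The module block gave 0.86 (limma adjusted p = 0.021), and the call was lost without any 1 array other than reference array 3 (limma adjusted p up to 0.024). The other nhr pseudogenes on the array were not called, and the 11 together ranged from -0.08 to 0.79 with a median of 0.18.

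**Figure D2:**
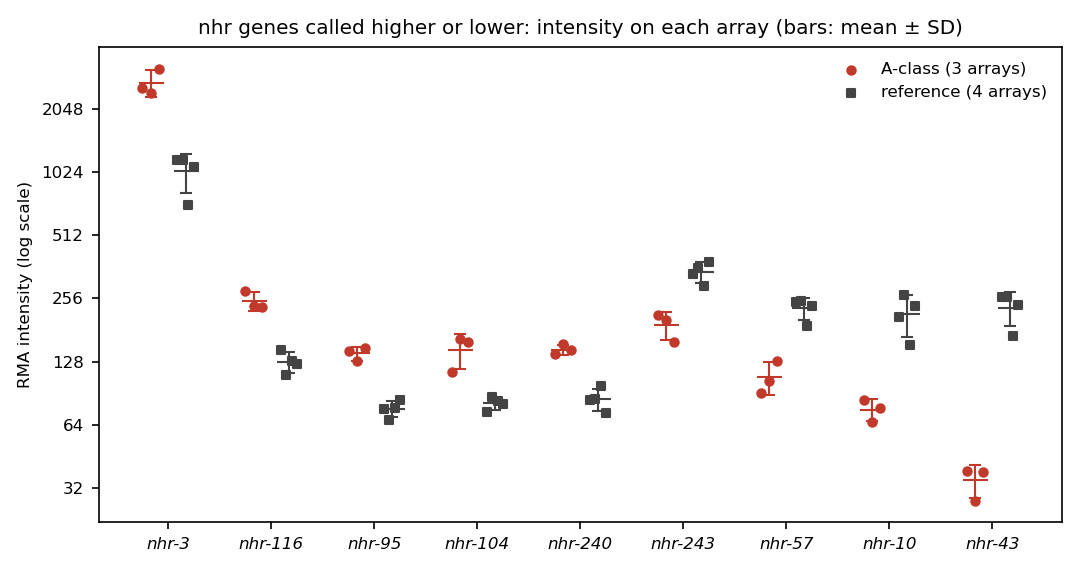
RMA intensity (log axis) of the 9 called nhr genes on each of 3 A-class (circles) and 4 reference (squares) arrays, with bars for the mean and SD. The groups do not overlap for any of the 9, and they are widest apart for nhr-43, with A-class arrays at 27.9 to 38.8 and reference arrays at 170.1 to 259.

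Among the genes lower in A-class cells, nhr-43 (C29E6.5) had the largest change of the family. It measured 38.8, 27.9 and 38.4 on the A-class arrays and 259, 259, 170.1 and 239 on the reference arrays. The means were 35.0 ± 6.17 (SD, n = 3) and 232 ± 42.2 (SD, n = 4), a log2 fold change of -2.72 (SE 0.19, limma adjusted p = 3.4e-04), so that the reference was 6.60-fold brighter. Every A-class array was far below reference array 3, the dimmest of the reference. The call held without each array in turn (limma adjusted p up to 0.0027) and in the fit with fluidics module as a block (-2.86, limma adjusted p = 0.0057). The differences within modules 1 and 2 were -2.93 and -2.74, and module 1 alone, which called 0 of all genes, did not call nhr-43 either (limma adjusted p = 0.081).

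The gene nhr-10 (B0280.8), whose product acts with NHR-68 in the control of propionate breakdown, measured 83.9, 66.1 and 77.2 in A-class cells and 209, 267, 153 and 236 in the reference. Its means of 75.7 ± 9.02 (SD, n = 3) and 216 ± 48.4 (SD, n = 4) gave a log2 fold change of -1.49 (SE 0.20, limma adjusted p = 0.0025), with the reference 2.81-fold brighter. The groups did not overlap on this probe set, nor on a second one for nhr-10, which was also called lower (-1.09, limma adjusted p = 0.0026). With the module as a block nhr-10 was still called (-1.65, limma adjusted p = 0.0062), with -1.64 and -1.67 within modules 1 and 2, and its call was lost without A-class array 3 (limma adjusted p = 0.012).

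The gene nhr-57 (T05B4.2), a known target of the hypoxia-inducible factor HIF-1, read 90.7, 103.9 and 129 in A-class cells and 246, 249, 189.9 and 237 in the reference. The log2 fold change was -1.10 (SE 0.16, limma adjusted p = 0.0036), with the reference 2.15-fold brighter. All A-class arrays were below all reference arrays. The module block gave -1.19 (limma adjusted p = 0.016), with -1.06 and -1.46 within modules 1 and 2, and the call was lost without A-class array 1 or 2 or reference array 2 or 4 (limma adjusted p up to 0.017). Next to nhr-57 in the gene order, phat-4 was at -0.93 and just missed the limit (limma adjusted p = 0.0102).

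The smallest of the lower genes was nhr-243 (Y80D3A.4), at 213, 203 and 159 in A-class cells and 335, 358, 293 and 383 in the reference. The log2 fold change was -0.84 (SE 0.15, limma adjusted p = 0.0080), with the reference 1.79-fold brighter. The groups were apart on these 7 arrays. The call was lost without any 1 of the 7 arrays (limma adjusted p up to 0.033) and with the module as a block (-0.91, limma adjusted p = 0.027). It was also lost after quantile normalization, after median centering, with 50 added to each value and with trend and robust variance. The difference was -0.99 within module 1 and -0.75, under the fold limit, within module 2.

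**Figure D3:**
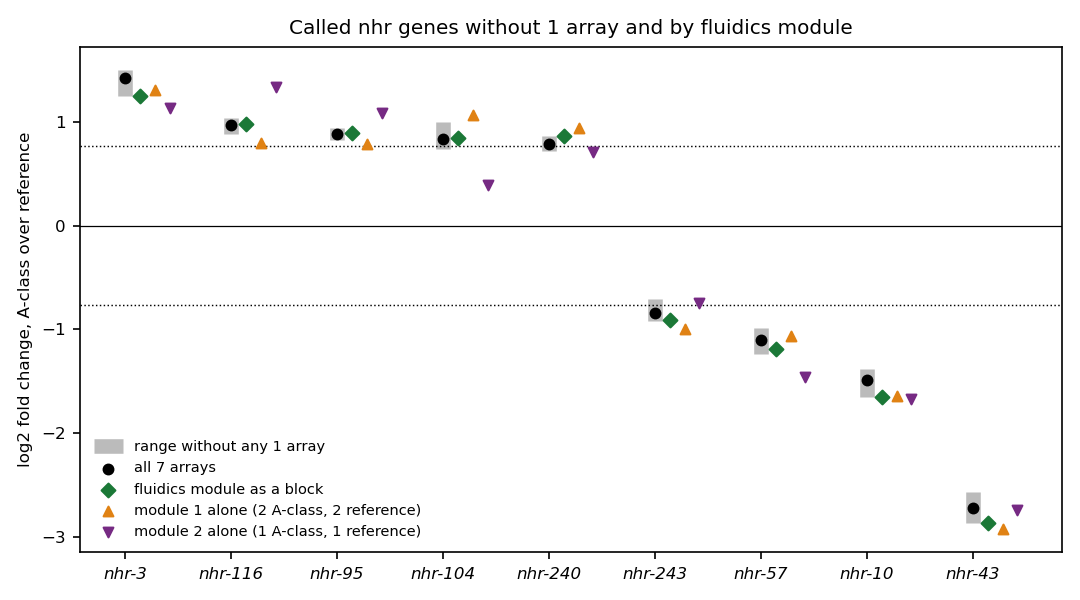
Log2 fold change, A-class over reference, of the 9 called nhr genes in all 7 arrays (black), the range when each array was left out in turn (grey bars), with the fluidics module as a block (green), within module 1 (orange) and within module 2 (purple), with dotted lines at 1.7-fold. Every value kept its sign, and the widest gap between modules was that of nhr-104, at 1.07 and 0.39.

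Receptors with known orthologs in flies or vertebrates were all uncalled: 0 of 10 were higher and 0 lower, with a median log2 fold change of -0.20 and groups apart for 5 of 10, beside 30.7% of all genes. The only nhr gene past the adjusted p limit but short of 1.7-fold was nhr-23, the ortholog of fly DHR3 and vertebrate ROR that is required for molting. It was at 123, 129 and 120.1 in A-class cells and 192, 202, 177 and 233 in the reference (-0.69, SE 0.12, limma adjusted p = 0.0088). Its A-class arrays were all below its reference arrays, but a second probe set of nhr-23 gave 0.15 (limma adjusted p = 0.40).

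The gene nhr-25, ortholog of fly Ftz-F1 and needed for epidermal development and molting, measured 192, 140.1 and 264 in A-class cells and 409, 569, 333 and 479 in the reference. The difference of -1.19 (SE 0.25, log2) was the largest among the uncalled members, and it missed the limit with a limma adjusted p of 0.015. The groups did not overlap on this probe set, while a shared probe set of nhr-25 gave 0.06 (limma adjusted p = 0.74), the widest gap between probe sets of any member. The GCNF relative nhr-91 was at -0.60 (limma adjusted p = 0.049). The NR4A ortholog nhr-6 was at -0.59 (limma adjusted p = 0.091), with A-class array 3 level with reference array 3 at 208. A second probe set of nhr-6 gave -0.77 (limma adjusted p = 0.061), and on it the groups did not overlap. The Rev-erb relative nhr-85 was at 0.39 (limma adjusted p = 0.12), and nhr-8, nhr-41, nhr-48, nhr-67 and nhr-111 lay between -0.30 and 0.21.

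Receptors of embryonic, epidermal, muscle and excretory development had 0 of 7 members called, a median of -0.66 and groups apart for 5 of 7, beside 30.7% of all genes. Besides nhr-23 and nhr-25, nhr-2, which is active in early embryos, measured 29.7, 45.0 and 37.98 in A-class cells and 60.3, 65.4, 51.9 and 64.8 in the reference (-0.70, SE 0.16, limma adjusted p = 0.023). All A-class arrays were below the reference on that probe set, while 3 further probe sets of nhr-2 gave -0.25 to -0.07 and were not called. The gene nhr-31, which acts in growth of the excretory cell, was at -0.66 (SE 0.19, limma adjusted p = 0.047), with groups that did not overlap. The remaining members were nhr-40 (-0.29), nhr-60 (0.01) and nhr-67 (0.21). A second probe set of nhr-40 gave -0.64 (limma adjusted p = 0.034), with groups that did not overlap, and was not called.

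Markers of hypodermis and muscle were measured beside these receptors. None of 7 hypodermal markers was called, with a median of -0.73 and a range from -1.49 (sqt-3) to 0.53 (dpy-13), and their summed intensity, to which sqt-3 gave the most, was 1751 to 3363 on A-class and 3576 to 6583 on reference arrays, without overlap. Of 6 body wall muscle markers none was called, and their sum was 707 to 1586 against 1828 to 2675. Their part in the values of nhr-23, nhr-25, nhr-2 and nhr-31 was not tested. Of 8 molting genes, 2 were lower and none higher, with a median of -0.90. Of the lower genes the call of noah-2 held without each array in turn and that of mlt-9 was lost without any 1 array (limma adjusted p up to 0.031). They were noah-2 (-2.38, SE 0.18, limma adjusted p = 3.7e-04), which encodes an apical extracellular matrix protein, and mlt-9 (-1.32, SE 0.24, limma adjusted p = 0.0091). With these stood mlt-8 at -1.03 (limma adjusted p = 0.014) and noah-1 at -0.90 (limma adjusted p = 0.060), which did not pass. The molting gene mlt-10 went the other way, at 0.39 (limma adjusted p = 0.064), with all A-class arrays above all reference arrays. Near 0 lay nas-36 (-0.14) and nas-37 (0.03), whose groups overlapped.

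Receptors of lipid and dietary metabolism had 1 of 10 measured members called, nhr-10, with none higher, a median of -0.31 and groups apart for 2 of 10 (all genes 30.7%). NHR-49, an HNF4-related regulator of fatty acid desaturation and fasting, was measured at 2112, 1700.4 and 2112 in A-class cells and 2141, 2388, 1720.4 and 2492 in the reference, with a log2 fold change of -0.14 (SE 0.16, limma adjusted p = 0.57). The groups overlapped on this probe set, and A-class arrays 1 and 3 held the same value. A second probe set of nhr-49 gave -0.85 (limma adjusted p = 0.025) and was not called. On it every A-class array (253 to 428) lay below every reference array (462 to 668). The NHR-49 partners nhr-80 (-0.56, limma adjusted p = 0.35) and nhr-66 (-0.43, limma adjusted p = 0.50) overlapped between groups, and so did nhr-64 (-0.48, limma adjusted p = 0.087). A second probe set of nhr-66 gave -0.41 (limma adjusted p = 0.067), and on it the groups did not overlap. The gene nhr-68 was at -0.33 (limma adjusted p = 0.15), and nhr-13, nhr-69, nhr-76 and nhr-114 lay between -0.28 and 0.26. Among 6 targets of NHR-49, only the glyoxylate cycle gene icl-1 was called, lower at -1.96 (SE 0.30, limma adjusted p = 0.0046), and its call was lost with the module block (limma adjusted p = 0.036) and without A-class array 1 or reference array 2, 3 or 4 (limma adjusted p up to 0.019). The desaturase genes fat-6 (-0.62, limma adjusted p = 0.092) and fat-5 (0.22) were not called, and the median of the 6 was -0.09. The summed intensity of 7 intestinal markers was 696 to 800.02 on A-class and 731 to 1380.1 on reference arrays, with none called and a median of 0.02, and their part in these values was not tested.

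Of 4 receptors of xenobiotic, pathogen and hypoxia responses, 1 was lower, nhr-57, and none was higher, with a median of -0.06. The gene nhr-176, which acts in drug metabolism, was at 0.30 (limma adjusted p = 0.17), with groups apart. The genes nhr-8, which protects from toxins, at -0.10 (limma adjusted p = 0.80) and nhr-86, which acts in intestinal defence, at -0.01 (limma adjusted p = 0.97) overlapped between groups. For nhr-86 the 95% interval lay within 1.7-fold.

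The list of receptors with roles or expression in neurons held nhr-6, nhr-38 and nhr-67, of which 0 of 3 were called. It is not a full list. The study also reports nhr-3 and nhr-95 as enriched in its profiles of the whole embryonic and larval nervous systems. It reports the locus of nhr-116 as enriched in the embryonic profile. These genes were called higher here, while others that the study reports as enriched in such a profile, among them nhr-40, were not called. The tailless ortholog nhr-67 was at 718, 680.5 and 761 in A-class cells and 653, 653, 552 and 627 in the reference, with a log2 fold change of 0.21 (SE 0.11, limma adjusted p = 0.22). All its A-class arrays were above its reference arrays, by a difference that did not pass. The gene nhr-38 was at -0.08 (limma adjusted p = 0.81).

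**Figure D4:**
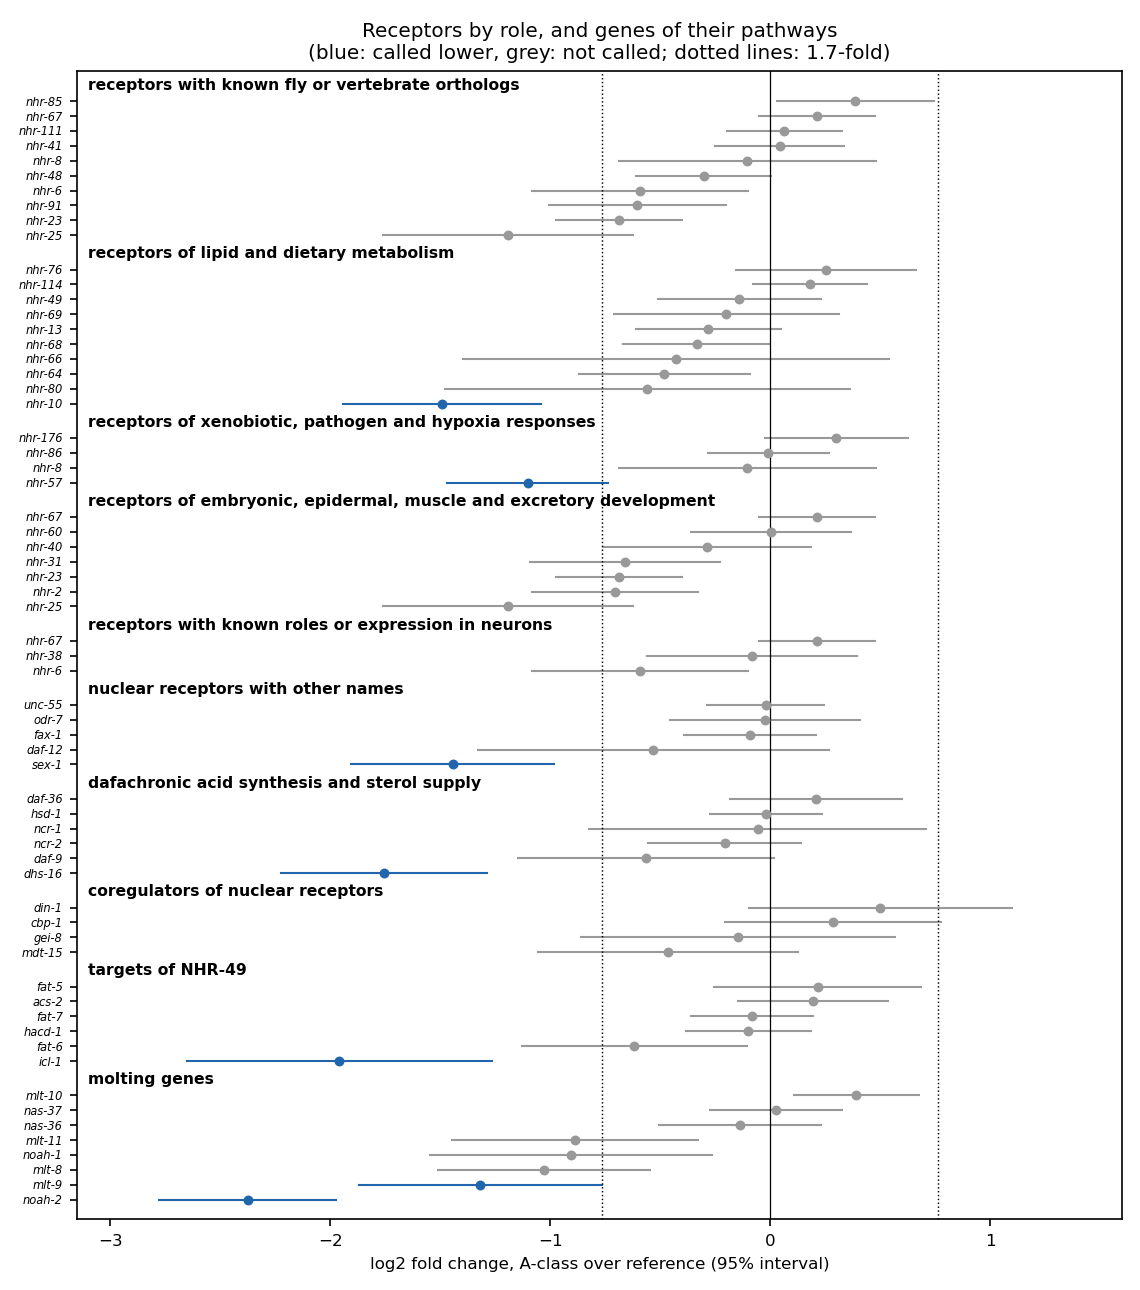
Log2 fold change, A-class over reference, with 95% interval for each measured receptor grouped by role (upper groups) and for other nuclear receptors and genes of their pathways (lower groups), with dotted lines at 1.7-fold. None of the 5 higher nhr genes belongs to a group drawn here. The called genes shown (blue) were all lower in A-class cells. Of the developmental receptors nhr-25, nhr-2, nhr-23 and nhr-31 lie at -1.19 to -0.66 without a call.

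Nuclear receptors known under other names were measured for comparison. Of 5, only sex-1, which takes part in counting X chromosomes, was called, and it was lower: 93.5, 56.1 and 92.5 in A-class cells against 191, 246, 197 and 226 in the reference (-1.44, SE 0.20, limma adjusted p = 0.0031). The call of sex-1 was lost with the module block (-1.48, limma adjusted p = 0.018) and without reference array 2 or 4 (limma adjusted p up to 0.014). The dauer receptor gene daf-12 was at -0.53 (SE 0.35, limma adjusted p = 0.31), with groups that overlapped. The neuronal receptors fax-1, unc-55 and odr-7 lay between -0.09 and -0.02. Of 6 genes for the synthesis of dafachronic acid, the ligand of DAF-12, and for its sterol supply, dhs-16 was lower (-1.76, SE 0.20, limma adjusted p = 0.0017) and 5 were not called, among them daf-9 (-0.56, limma adjusted p = 0.16) and daf-36 (0.21). None of 4 coregulators of nuclear receptors was called, and din-1 (0.50) and mdt-15 (-0.46) had the largest differences.

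Under their present names 4 of 5 nhr genes that the study lists for embryonic A-class cells were called higher (nhr-3, nhr-95, nhr-104 and nhr-116, with a median of 0.88 over the 5). That list was chosen on these same arrays and is not independent evidence of direction. Names have moved between genes since then: the locus F41B5.9 is nhr-182 in the annotation used here, whereas nhr-96 is F44C8.11. The locus F41B5.9 (nhr-182) measured 219, 257 and 306 in A-class cells and 190.3, 145, 116.3 and 154 in the reference, with a log2 fold change of 0.79 (SE 0.19, limma adjusted p = 0.024). Its groups did not overlap, and it passed the fold limit but not the p limit. The gene nhr-96 was at 0.10 (limma adjusted p = 0.63).

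Of the 20 members at least 1.7-fold apart, 11 were not called, 8 lower and 3 higher. Besides nhr-25 these included nhr-11, at 77.2, 64.8 and 158 in A-class cells and 259, 172, 167 and 174 in the reference (-1.03, SE 0.31, limma adjusted p = 0.052). A second probe set of nhr-11 gave -1.28 and just missed the limit (limma adjusted p = 0.0105). The gene nhr-100 was at -0.99 (SE 0.36, limma adjusted p = 0.092), with A-class array 1 at 110.1 inside the reference range.

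In nhr-188 and nhr-59, both uncalled with a higher A-class mean, 1 A-class array stood apart. The gene nhr-188 was at 47.8, 51.9 and 184 in A-class cells and 44.0, 35.8, 42.5 and 41.01 in the reference (0.92, SE 0.42, limma adjusted p = 0.16), with A-class array 3 far above the other two. For nhr-59 A-class array 2, at 34.4, was below every reference array (36.6 to 60.4) while arrays 1 and 3 were at 129.9 and 109. Its log2 fold change was 0.82 (limma adjusted p = 0.21), and 1.41 without A-class array 2 (limma adjusted p = 0.0084). Its probe set is the least specific type. The other members past 1.7-fold were nhr-256, nhr-213, nhr-19, nhr-214 and nhr-34, between -0.98 and -0.77, of which nhr-256 was nearest to a call (limma adjusted p = 0.011).

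Several probe sets measured 33 of the members, and for 23 of these all probe sets gave the same sign. The gap between the highest and lowest log2 fold change of 1 gene had a median of 0.32 and reached 1.25 for nhr-25. For nhr-46 the probe set that represents the gene gave -0.14 (limma adjusted p = 0.73), and a second one, at 178, 138 and 141 in A-class cells and 291, 283, 267 and 334 in the reference, was lower (-0.95, limma adjusted p = 0.0037). The probe sets of nhr-46 thus differed on the call, and nhr-46 is not counted among the lower genes. The paired probe sets of nhr-3 and nhr-10 gave the same sign.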

How the data were processed

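Intensities deposited by the authors are linear RMA values, 1 for each probe set on each array, of 3 embryonic A-class and 4 embryonic reference arrays (Affymetrix C. elegans GeneChip). Neither its version nor which arrays were normalized as 1 set is given in the sources used here. Groups and replicate numbers came from the sample labels, 0 value columns were without a sample, and the number of arrays limits the precision. Hybridization records were used only for chip lot, fluidics module and day.

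From these values log2 was taken with no pseudocount and no filter. Groups were compared with limma 3.58.1 in R 4.3.3 (lmFit and eBayes), without covariates, and p-values were adjusted by Benjamini-Hochberg over all 22548 probe sets. The step was tested on simulated data. Tables and figures used Python 3.11.15, pandas 2.3.3, scipy 1.17.1 and matplotlib 3.10.9.

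Platform annotation gives 1 symbol to 20766 probe sets, several to 887 and no symbol to 895. Only the first were used, and 14 nhr genes appeared only on probe sets of several symbols. A gene is represented by 1 probe set (_at before _s_at before others, then the highest mean). Among the called genes of other names, sex-1 and icl-1 have 3 probe sets each and mlt-9 has 2. For these only the probe set that represents the gene is reported. RefSeq supplied loci, biotypes and gene order, with no coordinates printed, since the build behind the array is not named.

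The genes named with values are every called nhr gene, those past only the p limit, in each list up to 4 members with the largest change, the nhr genes listed by the study, and the 3 uncalled members with the largest change in each direction. nhr-46, nhr-85, nhr-49, mlt-10, nas-36, nas-37 and the members named only as past the fold limit were added after their values were seen. So were the second probe sets of nhr-6, nhr-40, nhr-49 and nhr-66. The members and lists were chosen with earlier results of these data known. No list was tested.

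The alternatives were 1.5-fold, an adjusted p of 0.05, median centering, quantile normalization, a filter on the dimmest 30% of probe sets, log2 of the value plus 50, trend and robust variance, other choices of probe set, the replicate number or fluidics module as a block, each module alone, hybridization day as a random block, and each array left out.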

Additional observations from a re-analysis of the deposited data

Results flagged for a closer look

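Among the 4 reference arrays, 8 of 45 named genes, 5 of them nhr genes, had 1 array far from the others, by the gap to its nearest neighbour as a share of the whole range. Chance alone marks about 1 in 20 such groups.

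Reference array 3 was the low one for nhr-3 (share 0.837, 709 against 1079 to 1171), nhr-66 (0.953, 118 against 302 to 316), nhr-86 (0.970, 121 against 139.5 to 140.2) and the dauer receptor gene daf-12 (0.863, 200.3 against 476 to 546). Of these, nhr-3 is called, and its call held without reference array 3 (1.25, limma adjusted p = 0.0041). The module block gave nhr-3 the same estimate, but there the call was lost. Reference array 4 was the high one for nhr-8 (0.839, 71.4 against 42.5 to 46.2) and for the molting genes noah-2 (0.880, 656 against 429 to 451) and noah-1 (0.931, 1226 against 884 to 904). Reference array 1 was the high one for nhr-11 (0.903, 259 against 167 to 174).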

How the results depend on the processing

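The calls of 5 higher and 4 lower nhr genes were computed under 20 alternatives, and the family's median log2 fold change of 0.0039 under those other than the limits for a call, and within module 2, where there is no test. No named gene changed sign where it had been called. Leaving out 1 array gave 0 to 4 higher genes, 2 to 3 lower genes and medians of -0.0040 to 0.037. No higher gene was called without reference array 2 or A-class array 3, and 1 without A-class array 1 (nhr-104) or reference array 4 (nhr-95). With 50 added to each value 1 gene was higher (nhr-3). At an adjusted p of 0.05, 8 genes were lower, gaining nhr-19, nhr-25, nhr-214 and nhr-256, and 6 higher, gaining nhr-182. The fluidics module as a block left 0 higher and 2 lower genes (nhr-10 and nhr-43) and a median of 0.015, module 1 alone left 0 and 0, and the hybridization day as a random block left 0 and 1 (nhr-43). The call of nhr-243 was lost after quantile normalization, after median centering, with 50 added and with trend and robust variance, and that of nhr-104 with trend and robust variance. The molting gene mlt-9 also lost its call after median centering and with 50 added. The module block gives the same estimates as leaving out reference array 3, where 3 higher and 3 lower genes kept their calls. The losses under the blocks were not particular to the family: the module block called 73 higher and 81 lower of all genes and module 1 alone 0, against 378 and 566. The median was -0.077 without the dimmest probe sets, -0.034 after quantile normalization, 0.021 after median centering and 0.026 with only _at probe sets. Quantile normalization moved the split over all genes to 483 higher and 501 lower, and leaving out A-class array 2 to 356 and 357. Chip lot as a block was not run, since each group lies in 1 lot.

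Same-numbered arrays did not deviate together (correlations of 0.03, -0.12 and -0.05), so they share only a number. The fit with the replicate number as a block left out reference array 4, since no A-class array has that number. In it 0 nhr genes were higher and 1 lower (nhr-43), the median was 0.037, and 69 higher and 78 lower genes were called in all. Leaving out reference array 4 without a block left 1 higher and 2 lower nhr genes.

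With 7 arrays, changes near 1.7-fold lay close to the limit of the test.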
